A study of Mus musculus with 18 samples.

Results

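Ribosome occupancy after 18 h of cyclopiazonic acid (CPA) is described here for MIN6 cells, a mouse insulinoma line used as a model of the pancreatic beta cell. CPA blocks the calcium pump of the endoplasmic reticulum (ER) and so causes ER stress. Occupancy of a gene was its share of ribosome-protected fragments (Ribo-seq) divided by its share of poly(A) mRNA fragments (mRNA-seq), both scaled to the same library total (RPM), and its change was the log2 of the CPA18 ratio over the control ratio within one experiment. Of 17208 genes listed, 7794 had at least 1 read in all 18 libraries and entered the analysis. Of the 18 libraries, 12 belong to this comparison: mRNA-seq and Ribo-seq of control cells, given the vehicle DMSO for 18 h, and of CPA18 cells, given 200 µM CPA for 18 h, in each of 3 independent experiments. The other 6 libraries, from cells given 200 µM CPA for 1 h (CPA1), entered the fit so that all treatments shared one estimate of the spread. All cells came from 1 line, were grown in high-glucose medium and were treated with cycloheximide at harvest for ribosome profiling. Reads were counted over whole transcripts, so fragments from the leader, the coding sequence and the trailer of a transcript are not separated in any value below.

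Translation of most mRNAs starts when a ribosome scans the leader from its 5′ end to the first suitable ATG. Under ER stress the kinase PERK phosphorylates the initiation factor eIF2α, which lowers initiation on most mRNAs and favours some whose leaders hold short upstream reading frames, among them those of the transcription factors ATF4 and ATF5. A ratio of Ribo-seq to mRNA-seq rises when more ribosomes sit on each mRNA, and it also rises when an mRNA declines while its footprints do not, or when ribosomes move more slowly.

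The sequences below belong to the genes on which the results turn and were taken from RefSeq transcripts placed on the mouse assembly GRCm38.p6, on which all positions are given. The first pair shows the leader element of the ferritin mRNAs, which iron regulatory proteins bind. The capitals mark the bulged C and the loop of that element.
Ftl1 leader element, chr7:45459781-45459810, minus strand: tgtgtcttgCttcaaCAGTGTttgaacgga
Fth1 leader element, chr19:9982729-9982758, plus strand: ggtttcctgCttcaaCAGTGCttgaacgga
The motif with these letters, CNNNNNCAGTGN, was searched on the transcript strand of every leader and was in 615 of 7786 leaders (7.90%). The next lines show the Atf5 leader, because Atf5 was the only gene called for occupancy among the stress response mRNAs with known upstream reading frames. Capitals mark an ATG in the leader and, in the last line, the start of the coding sequence.
Atf5 leader ATG at base 41, chr7:44815604-44815633, minus strand: gtgtgtgtgacactgATGaagggcccaggc
Atf5 leader ATG at base 158, chr7:44815487-44815516, minus strand: gggattgaaatttttATGaagaggaataag
Atf5 coding start, chr7:44815152-44815181, minus strand: gcctgtgtcacagccATGtcactcctggcg
The frame that opens at base 41 has 19 codons and closes inside the leader. The frame that opens at base 158 has 63 codons and closes at base 349, past the coding start at base 294 and out of frame with it. An out-of-frame leader ATG with at least 10 codons that runs past the coding start was found in 1040 of 7786 leaders (13.4%). The start regions of Kmt5c, whose occupancy rose, and of Nr1d1, whose occupancy fell, come next, with the ATG of the coding sequence in capitals. The Kmt5c call was kept under all 16 alternatives that could test it, and the Nr1d1 call was lost under 8 of 16.
Kmt5c coding start, chr7:4741857-4741886, plus strand: ggtttttaaagcaccATGgggcctgatcga
Nr1d1 coding start, chr11:98774734-98774763, minus strand: tcagctggtgaagacATGacgaccctggac
The leader of Kmt5c has 784 bases with 4 ATGs, and that of Nr1d1 has 629 bases with 3 ATGs. The last pair shows stretches that the transcripts of 2 called genes share, letter for letter, with ribosomal RNA, and the whole run is in capitals for that reason.
Gm20594, also in mt-Rnr2, chr6:79818283-79818312, plus strand: TTTAATCAGTGAAATTGACCTTTCAGTGAA
Tmem38b, also in Gm22109, chr4:53860701-53860730, plus strand: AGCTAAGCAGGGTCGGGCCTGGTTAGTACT

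The Ribo-seq libraries of CPA18 cells were the shallowest, with 168129 to 553842 counted reads, against 821147 to 1083297 in control Ribo-seq, 520960 to 2408123 in control mRNA-seq and 1241570 to 4755030 in CPA18 mRNA-seq. The median tested gene had 7, 8 and 22 reads in CPA18 Ribo-seq of experiments 1, 2 and 3. All 10 beta-cell markers were detected, with a summed level of 155306 to 457744 RPKM (RPM per kilobase of transcript) in control mRNA-seq and 42752 to 131554 RPKM in CPA18 mRNA-seq. The 6 alpha-cell markers, also detected, summed to 954 to 2631 RPKM in control mRNA-seq and 151 to 404 RPKM in CPA18 mRNA-seq. The 5 duct-cell markers, of which Krt7 gave nearly all reads, summed to 125 to 312 RPKM in control and 103 to 308 RPKM in CPA18 mRNA-seq. Those of delta cells and of PP cells summed to at most 15.4 and 7.31 RPKM, and those of acinar cells, fibroblasts, endothelial cells and macrophages summed to at most 4.26 RPKM. Large shares of some libraries lay on few genes. Lars2, which encodes the mitochondrial leucyl-tRNA synthetase, took 45.1%, 7.19% and 15.1% of control mRNA-seq reads and 54.8%, 5.46% and 4.75% of CPA18 mRNA-seq reads in experiments 1, 2 and 3. Ins1 and Ins2 together took 6.60% to 20.9% of control mRNA-seq reads and 1.44% to 5.06% of CPA18 mRNA-seq reads. For the control libraries of experiment 2 the titles and the descriptions name opposite assays, and the titles were followed; Lars2 took 7.19% of reads in the library titled mRNA-seq and 0.0830% in that titled Ribo-seq, so its share was higher in mRNA-seq, as in the other experiments. In the control mRNA-seq library of that experiment, 62 genes (0.795% of those tested) were over 8 times higher than in experiments 1 and 3.

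Occupancy of the median gene moved by 0.51, -0.12 and -0.24 on the log2 scale in experiments 1, 2 and 3 (0.05 ± 0.41, SD, n = 3), so the experiments did not share a direction. With Ins1, Ins2 and Lars2 taken out of the library totals these values were 0.18, -0.03 and 0.03 (0.06 ± 0.11, SD, n = 3). The changes of single genes were also only loosely shared: across the 7794 genes, Pearson's r between experiments was 0.18 for experiments 1 and 2, 0.06 for 1 and 3, and 0.21 for 2 and 3. Over the 2418 genes with at least 10 reads in each of the 12 libraries, r was 0.34, 0.11 and 0.40. The changes of mRNA-seq alone had r of 0.53 to 0.65 between experiments, and those of Ribo-seq alone 0.47 to 0.53. These are descriptions across genes, which share libraries and are not replicates. Counting error of a single gene's change had a median of 0.84, 0.69 and 0.52 in experiments 1, 2 and 3. In the histograms of changes over all genes the 3 experiments overlap broadly and differ in their centres.

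**Figure D1:**
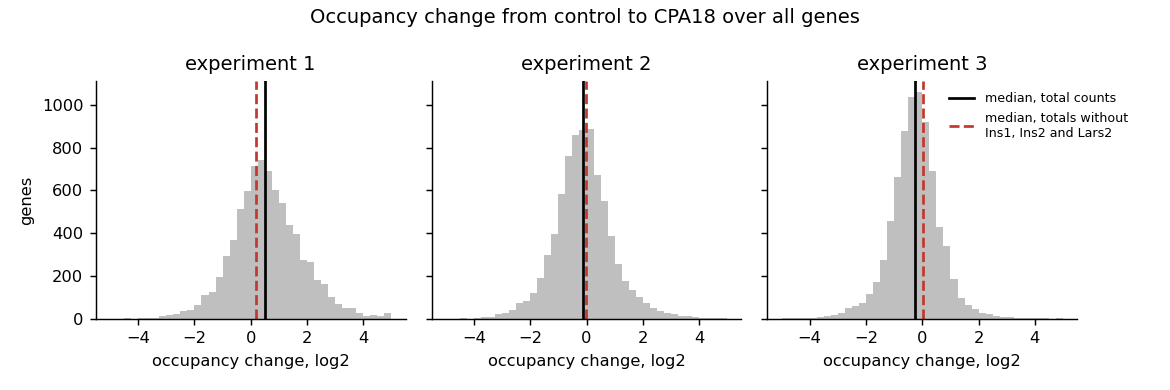
Histograms of the change of ribosome occupancy from control to CPA18 (x axis, log2 of the CPA18 ratio over the control ratio; y axis, number of genes) over the 7794 tested genes, with a panel for each of the 3 experiments and values past 5 drawn at 5. Solid lines mark the median with total counts and dashed lines the median with totals without Ins1, Ins2 and Lars2. The medians sit at 0.51, -0.12 and -0.24 in experiments 1, 2 and 3, and the interquartile range runs from -0.20 to 1.32, from -0.72 to 0.47 and from -0.75 to 0.25.

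Tested gene by gene, occupancy rose for 34 genes (0.436% of those tested) and fell for 2 (0.0257%), by edgeR's quasi-likelihood test of the interaction of assay and treatment with Benjamini-Hochberg adjustment at 0.05. At an unadjusted p under 0.05 there were 442 higher (5.67%) and 260 lower (3.34%). Far more genes passed in each assay alone. In mRNA-seq 2018 genes rose (25.9%) and 599 fell (7.69%), and in Ribo-seq 1914 rose (24.6%) and 495 fell (6.35%), with every library scaled to its total count. Scaled by TMM instead, 42.7% of the mRNA-seq calls and 48.3% of the Ribo-seq calls were increases, against 77.1% and 79.5% here. That scaling moved the median change of all genes from 0.36 to -0.08 in mRNA-seq and from 0.39 to 0.03 in Ribo-seq, but from 0.03 to 0.06 in occupancy, so counts of genes that rose or fell in a single assay hold for total-count scaling. The experiment was a block in the fit, and without that block 3 of the 36 occupancy calls were kept: Cdyl2, Gm20594 and Kmt5c. Of the 36 genes, 23 had fewer than 10 reads in at least 1 of the 12 libraries.

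The 36 genes showed different combinations of the 2 assays, of which mRNA-seq enters the occupancy as its denominator. For 16 of the 34 genes that rose, Ribo-seq rose and mRNA-seq did not pass its test; these include Kmt5c, Ftl1, Cenpb, Hint2, Pts, Tcea1, Kif3a and Cbx5. For 11, mRNA-seq fell and Ribo-seq rose, as for Gm20594, Tmem38b, Cdyl2, D430019H16Rik and Bicd2. For 5, mRNA-seq fell and Ribo-seq did not pass: Igf2, Ptms, Enho, Maml3 and Rtl1. Atf5 rose in both assays, and Nnat fell in both. Nr1d1, whose occupancy fell, rose in mRNA-seq. The sign of the change was the same in all 3 experiments for 33 of the 34 increases, Zfp664 being the exception, and for both decreases; over all genes 15.8% were higher and 14.9% lower in all 3. The control and CPA18 occupancies did not overlap for 24 of the 34 and for both decreases, against 3.87% and 4.08% of all genes; these shares describe genes that the test had selected.

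**Figure D2:**
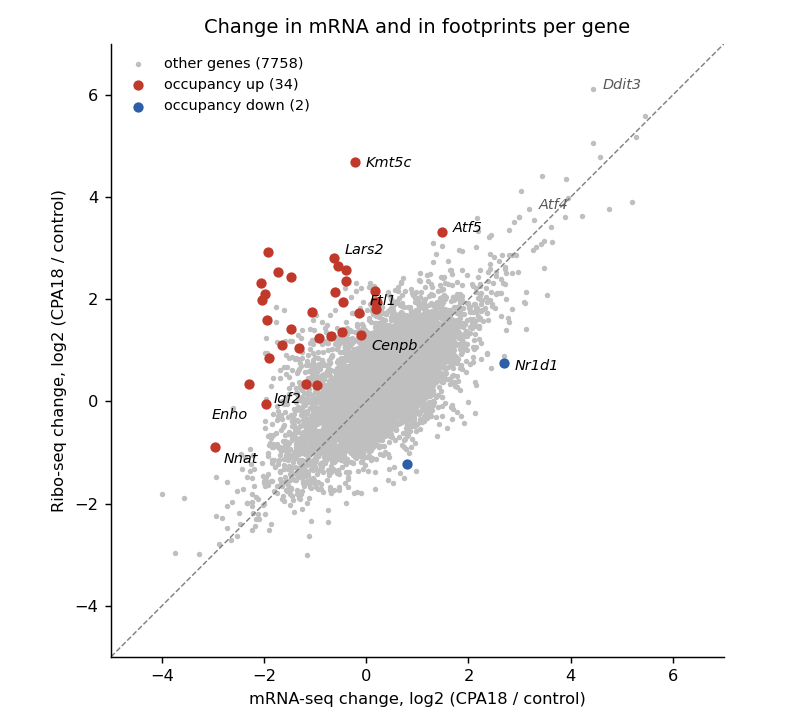
Change from control to CPA18 in mRNA-seq (x axis, log2) and in Ribo-seq (y axis, log2) for the 7794 tested genes, with the 36 genes called for occupancy marked. Points above the diagonal gained occupancy; Kmt5c lies at -0.22 and 4.69, Nnat at -2.97 and -0.89, and Nr1d1 at 2.70 and 0.75.

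Kmt5c had the largest change among the genes whose call was kept under every alternative that could test them, the other being Gm20594. It encodes a methyltransferase that places the trimethyl mark on histone H4 in heterochromatin, and it lies on chromosome 7, positions 4740127 to 4747514, plus strand. Its mRNA-seq level was 17.3, 29.2 and 26.6 RPM in the control cells of experiments 1, 2 and 3 and 7.25, 21.03 and 36.7 RPM in CPA18 cells. Its Ribo-seq level was 24.4, 16.1 and 35.1 RPM in control cells and 214, 729 and 989 RPM in CPA18 cells. The mRNA values of the groups overlapped, whereas each CPA18 Ribo-seq value lay far above all control values. The ratio went from 1.41, 0.553 and 1.32 to 29.5, 34.6 and 26.96, a change of 4.87 ± 0.49 on the log2 scale (SE, n = 3, adjusted p = 2.29e-11, edgeR quasi-likelihood test). The call was kept under all 16 alternatives that could test it, with changes from 4.17 to 5.53. At 1 h, when occupancy rose for 7 genes (0.0898%), the fitted change of Kmt5c was 3.40 (adjusted p = 1.73e-05, edgeR), against the same control libraries.

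Other called genes act on chromatin too. The list of chromatin writers, readers and centromere proteins was written with earlier results of these data known, so its counts are no separate support. Of its 55 tested members 4 rose in occupancy, against 0.436% of all genes. At an unadjusted p under 0.05, 7 were higher and 3 lower, against 5.67% and 3.34% of all genes. The list median lay 0.20 above that of all genes and took the other sign under 1 of 17 alternatives. Besides Kmt5c, the members that rose were Cdyl2, Cenpb and Cbx5. Cdyl2, a chromodomain protein, had 2, 12 and 13 mRNA-seq reads in control and 1, 11 and 3 in CPA18 cells. Its Ribo-seq reads were 10, 7 and 16 in control and 4, 11 and 63 in CPA18 cells, so the change of 4.23 ± 0.70 (adjusted p = 6.29e-05, edgeR) rests on few reads, and its trailer holds a run of 50 bases of repeated TC. Cenpb encodes the protein that binds a box in centromeric repeats. Its ratio was 0.443, 0.0979 and 0.141 in control and 1.48, 0.174 and 0.372 in CPA18 cells, overlapping between groups though higher within each experiment, a change of 1.39 ± 0.33 (adjusted p = 0.0298, edgeR). The Cenpb call was lost without experiment 1 (1.22, adjusted p = 0.385, edgeR) and without experiment 3 (1.34, adjusted p = 0.218). It was also lost without the control mRNA-seq library of experiment 2 (1.30, adjusted p = 0.102) and when adjusted for GC content (1.13, adjusted p = 0.151). Cbx5, which encodes the heterochromatin protein HP1α, changed by 1.98 ± 0.51 (adjusted p = 0.0476, edgeR) and lost the call without any one experiment, with values of 1.73, 2.04 and 2.23.

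**Figure D3:**
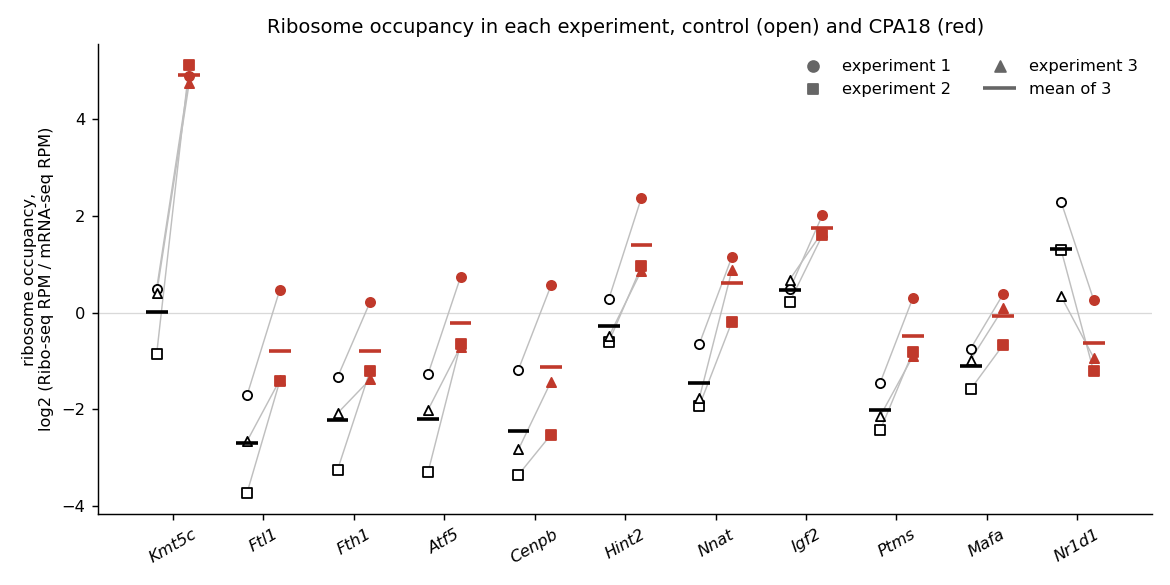
Ribosome occupancy (y axis, log2 of Ribo-seq RPM over mRNA-seq RPM) in control (open) and CPA18 (red) cells for 11 genes of the text, with a symbol for each of the 3 experiments, a thin line joining the values of one experiment and a thick bar at the mean of 3. The Kmt5c lines run from ratios of 1.41, 0.553 and 1.32 up to 29.5, 34.6 and 26.96, and the Nr1d1 lines run down in all 3 experiments.

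Ferritin light chain gained footprints on an mRNA that did not pass the mRNA-seq test. Ferritin stores iron, and the translation of its mRNAs is known to be held back by iron regulatory proteins on the leader element printed above. Ftl1, on chromosome 7, positions 45457944 to 45459886, minus strand, had 710.2, 1931 and 1663 RPM in control mRNA-seq and 531, 1768 and 1768 RPM in CPA18 mRNA-seq. In Ribo-seq it had 218, 146 and 264 RPM in control and 732, 659.8 and 672 RPM in CPA18 cells, with no overlap between groups. The ratio went from 0.307, 0.0758 and 0.159 to 1.38, 0.373 and 0.380, a change of 1.90 ± 0.30 (SE, n = 3, adjusted p = 3.21e-05, edgeR quasi-likelihood test). Without experiment 1 the value was 1.79, adjusted p = 0.0516, just short of the threshold. The heavy chain, Fth1, was looked up after the Ftl1 values had been seen. Its mRNA-seq level was 123, 337 and 300.2 RPM in control and 138, 350.4 and 385 RPM in CPA18 cells, and its Ribo-seq level 48.7, 35.5 and 71.1 and 161, 153 and 148 RPM. All CPA18 Ribo-seq values of Fth1 exceeded all control values, and the occupancy change was 1.37 ± 0.36 with an adjusted p of 0.0516 (edgeR), which misses the threshold. The letters of the motif were also in the leaders of the called genes Cpeb2, Gm20594, Nr1d1 and Rtl1, so 5 of 36 called leaders held them. Parts of the ferritin transcripts resemble processed copies elsewhere in the genome, which the counting could split.

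Atf5 was the only called gene that rose in both assays. It encodes a transcription factor of the stress response and lies on chromosome 7, positions 44812256 to 44815658, minus strand. Its mRNA-seq level was 88.3, 169.7 and 219.7 RPM in control and 182, 549.9 and 659.6 RPM in CPA18 cells, a change of 1.48 ± 0.25 (adjusted p = 1.7e-06, edgeR). Its Ribo-seq level was 36.5, 17.2 and 54.5 RPM in control and 303, 349.6 and 406 RPM in CPA18 cells. Footprints therefore grew more than the mRNA in each experiment, and the ratio went from 0.414, 0.101 and 0.248 to 1.67, 0.636 and 0.616, a change of 1.85 ± 0.36 (adjusted p = 0.00124, edgeR quasi-likelihood test). Without experiment 1 the call was lost (1.83, adjusted p = 0.0646). Since reads were counted over the whole transcript, footprints on the leader frames printed above and on the coding sequence are added together.

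Most of the mRNAs known for upstream reading frames rose in each assay, and Atf5 alone passed for occupancy. Of the 23 tested members of this list, 15 rose in mRNA-seq and 17 in Ribo-seq, against 25.9% and 24.6% of all genes. In occupancy 1 rose, and 3 were higher and 0 lower at an unadjusted p under 0.05, against 5.67% and 3.34%. The list's median occupancy change lay 0.25 above that of all genes, and 0.35, 0.32 and 0.43 above it in experiments 1, 2 and 3. Atf4, the transcription factor at the centre of the pathway, changed by 3.19 in mRNA-seq, 3.76 in Ribo-seq and 0.57 ± 0.31 in occupancy (adjusted p = 0.59, edgeR). Ddit3, which encodes CHOP, had 17.3, 15.2 and 17.4 RPM in control mRNA-seq and 133, 408 and 519 RPM in CPA18 mRNA-seq, a change of 4.45. Its occupancy change was 1.69 ± 0.54 (adjusted p = 0.175, edgeR), with values of 4.43, 2.003 and 0.76 in experiments 1, 2 and 3. Ppp1r15a, which encodes the phosphatase subunit GADD34 that reverses eIF2α phosphorylation, changed by 4.58 in mRNA-seq, 4.78 in Ribo-seq and 0.21 ± 0.34 in occupancy (adjusted p = 0.912, edgeR).

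Nnat fell in both assays and fell more in mRNA-seq, while Igf2, Ptms, Enho, Maml3 and Rtl1 fell in mRNA-seq and did not pass the Ribo-seq test. Nnat encodes neuronatin, a small membrane protein of the ER that assists the processing of preproinsulin, and lies on chromosome 2, positions 157560078 to 157562525, plus strand. Its mRNA-seq level was 1167, 3459 and 2939 RPM in control and 206, 432 and 274 RPM in CPA18 cells. Its Ribo-seq level was 747, 910.0 and 863 RPM in control and 458, 379 and 504 RPM in CPA18 cells. Both levels fell without overlap between groups, by 2.97 in mRNA-seq and by 0.89 in Ribo-seq on the log2 scale, and the ratio went from 0.640, 0.263 and 0.294 to 2.22, 0.877 and 1.84. In these bulk libraries, fewer cells making an mRNA and less of it per cell cannot be told apart. The occupancy change of Nnat was 2.07 ± 0.31 (SE, n = 3, adjusted p = 4.77e-06, edgeR quasi-likelihood test) and stayed past the threshold without any one experiment. The Nnat call was lost by limma and without the experiment block.

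Igf2, an imprinted growth factor gene on chromosome 7, positions 142650768 to 142658804, minus strand, had 1058, 1211 and 788 RPM in control mRNA-seq and 515, 568 and 465 RPM in CPA18 mRNA-seq. In Ribo-seq it had 1482, 1418 and 1268 RPM and 2082, 1723 and 1477 RPM. Its mRNA thus fell without overlap while the ranges of its footprints met at 1477 to 1482 RPM, giving an occupancy change of 1.30 ± 0.28 (adjusted p = 0.00926, edgeR). The Igf2 call was lost without experiment 1 (1.18, adjusted p = 0.323) and without the control mRNA-seq library of experiment 2 (1.23, adjusted p = 0.0537). Ptms, which encodes the small acidic nuclear protein parathymosin, had mRNA levels of 355, 979 and 958 RPM in control and 121, 407 and 548 RPM in CPA18 cells. Its footprints were at 130.3, 182 and 218 RPM and 149, 231 and 292 RPM. The change of Ptms was 1.51 ± 0.32 (adjusted p = 0.00448, edgeR). It missed the threshold without experiment 1 (1.42, adjusted p = 0.227) and without experiment 2 (1.46, adjusted p = 0.0637), and when adjusted for GC content (1.16, adjusted p = 0.0956). Enho, which encodes the secreted peptide adropin, changed by -1.97 ± 0.27 in mRNA-seq and -0.06 ± 0.35 in Ribo-seq. Its occupancy change was 1.90 ± 0.42 (adjusted p = 0.0103, edgeR). The Enho call was lost without any one experiment, at 2.03, 1.96 and 1.67, and when adjusted for GC content (1.52, adjusted p = 0.109). Rtl1 and Maml3, the imprinted retrotransposon-derived gene and a Notch coactivator, changed by 2.75 and 2.64. Both lost the call without any one experiment, Rtl1 with values of 3.32, 2.44 and 2.38 and Maml3 with 2.35, 2.83 and 2.62.

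The insulin genes moved the same way without passing. Ins1 had 6766, 23308 and 18626 RPM in control mRNA-seq and 972, 3465 and 3626 RPM in CPA18 mRNA-seq. Its Ribo-seq level was 26422, 29268 and 22173 RPM in control and 5728, 7006 and 7192 RPM in CPA18 cells. Both fell, and the occupancy change was 0.67 ± 0.31 (adjusted p = 0.494, edgeR), with 0.59, 0.69 and 0.74 in experiments 1, 2 and 3. Ins2 changed by -1.96 in mRNA-seq, -1.56 in Ribo-seq and 0.41 ± 0.33 in occupancy (adjusted p = 0.757, edgeR). Closely similar coding sequences of the insulin genes make the division of their reads uncertain.

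Among the 31 genes of insulin, prohormone processing and secretory granules, 17 fell in mRNA-seq and 20 fell in Ribo-seq. Over all genes these shares were 7.69% and 6.35%. Within the list Nnat was the only occupancy call. At an unadjusted p under 0.05, 4 members were higher and 1 lower, against 5.67% and 3.34% of all genes. The list median lay 0.02 below that of all genes. Cpe, the carboxypeptidase that trims prohormones, had a change of -1.08 ± 0.30 (adjusted p = 0.0779, edgeR), opposite in sign to Nnat, and DESeq2 called it as a decrease. Ucn3, a peptide hormone of mature beta cells, had 2.18 ± 0.67 (adjusted p = 0.158, edgeR). Pcsk2, a prohormone convertase, changed by -1.56 in mRNA-seq, -1.59 in Ribo-seq and -0.04 ± 0.30 in occupancy (adjusted p = 0.984, edgeR).

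Of 26 tested genes of beta-cell identity and glucose sensing, 17 fell in mRNA-seq and 16 in Ribo-seq, against 7.69% and 6.35% of all genes. None of the 26 passed for occupancy by edgeR, DESeq2 or limma. At an unadjusted p under 0.05 (edgeR), 4 were higher and 0 lower, against 5.67% and 3.34% of all genes. The list median lay 0.29 above that of all genes, at 0.33, 0.17 and 0.09 in experiments 1, 2 and 3. Mafa, a transcription factor that activates the insulin genes, had 532, 869 and 1381 RPM in control mRNA-seq and 105, 219 and 251 RPM in CPA18 mRNA-seq. Its footprints were at 318, 290.4 and 702 RPM and 137, 138 and 267 RPM. Mafa fell in both assays, by 2.25 and by 1.23 on the log2 scale, and its occupancy change was 1.02 ± 0.32 (adjusted p = 0.165, edgeR), with 1.13, 0.92 and 1.07 in experiments 1, 2 and 3. Neurod1 and Nkx6-1, also transcription factors of the beta cell, had changes of 1.07 ± 0.34 and 0.80 ± 0.33 (adjusted p = 0.175 and 0.432, edgeR). Pdx1 had 0.38 ± 0.31 and the glucose transporter gene Slc2a2 0.22 ± 0.49 (adjusted p = 0.754 and 0.939, edgeR), and both took the other sign without experiment 1.

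Occupancy fell for Nr1d1. It encodes REV-ERBα, a haem-binding repressor of the circadian clock, and lies on chromosome 11, positions 98767932 to 98775377, minus strand. Its mRNA-seq level was 13.4, 17.02 and 18.3 RPM in control and 69.3, 126 and 117 RPM in CPA18 cells. Its Ribo-seq level was 65.8, 41.95 and 23.1 RPM in control and 83.3, 54.2 and 61.4 RPM in CPA18 cells, overlapping between groups. The mRNA rose by 2.70 and the ratio went from 4.89, 2.46 and 1.26 to 1.20, 0.431 and 0.526, a change of -1.96 ± 0.47 (adjusted p = 0.0298, edgeR). The call was lost without experiment 1 (-1.75, adjusted p = 0.275), without experiment 2 (-1.76, adjusted p = 0.339) and without the control mRNA-seq library of experiment 2 (-1.90, adjusted p = 0.0519). It was also lost with TMM scaling (-1.91, adjusted p = 0.0614) and with totals without Ins1, Ins2 and Lars2 (-1.87, adjusted p = 0.0793). The change of Nr1d1 at 1 h was 0.13, and Nr1d1 was the only gene whose occupancy was lower at CPA18 than at CPA1 (0.0128% of genes), while 5 were higher (0.0642%). Among the 16 tested clock genes Nr1d1 was the only call, and the list median lay 0.07 above that of all genes, with the other sign under 5 of 17 alternatives.

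Apart from Nr1d1, the decreases listed here did not pass the adjusted test. The genes to be named were drawn from those at an unadjusted p under 0.05 that moved one way in all 3 experiments and averaged at least 5 RPKM in each assay, which 188 genes met downward (2.41%) and 200 upward (2.57%). The 10 largest decreases were those of Slc7a6os (-2.33), Rala (-2.07), Chic2 (-2.05), Bcdin3d (-2.02), Nr1d1, Btg3 (-1.82), Dscc1 (-1.82), Bhlhe40 (-1.76), Dcaf13 (-1.73) and Rassf1 (-1.70). Btg3, an antiproliferative gene, came nearest to the threshold among them (adjusted p = 0.0586, edgeR). Bhlhe40 encodes a transcriptional repressor that, like REV-ERBα, acts in the clock. Its mRNA-seq change was 1.66 ± 0.37 (adjusted p = 0.000214, edgeR) and its Ribo-seq change -0.10 ± 0.46 (adjusted p = 0.894, edgeR). The 10 largest increases by the same rule were those of Kmt5c, Gm20594, Tmem38b, Bicd2, Lars2, Pts, D430019H16Rik, Slc23a2, Mycbp and Zfp513, of which Zfp513 alone did not pass (2.71 ± 0.72, adjusted p = 0.0586, edgeR).

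Some of the strongest calls lay on transcripts that hold ribosomal RNA or repeat sequence. Gm20594 is a predicted gene whose first 317 bases align to the mitochondrial ribosomal RNA mt-Rnr2 at 90.5% identity, with 65 bases in a row the same. It had 1608, 1642 and 1986 mRNA-seq reads in control and 567, 1589 and 400 in CPA18 cells. Its Ribo-seq reads were 126, 42 and 23 in control and 107, 27 and 146 in CPA18 cells. The occupancy change was 4.40 ± 0.37 (adjusted p = 1.13e-14, edgeR) and was called under all 17 alternatives. Tmem38b, which encodes an ER cation channel, shares 120 bases of its trailer with Gm22109, a predicted ribosomal RNA gene, at 95.8% identity. Its change was 3.92 ± 0.55 (adjusted p = 1.27e-06, edgeR), and its ratios were 0.00568, 0.0726 and 0.0433 in control and 0.0547, 0.648 and 1.21 in CPA18 cells. Lars2 had ratios of 0.0150, 0.0116 and 0.0277 in control and 0.0640, 0.168 and 0.552 in CPA18 cells, and its change was 3.46 ± 0.46 (adjusted p = 3.6e-07, edgeR). The Lars2 ratio stayed below 1 in every experiment, so its share of mRNA-seq exceeded its share of Ribo-seq throughout, and its CPA18 values lay above all control values. Perfect repeats of at least 30 bases with a unit of 1 to 4 bases were in 571 of 7786 transcripts (7.33%) and in 9 of the 36 called ones (25%), among them Cdyl2, D430019H16Rik, Igf2, Nf2, Proser3, Rdh8, Stx16 and Tcf4. D430019H16Rik, for example, holds 46 bases of repeated AG in its trailer and changed by 2.92 ± 0.49 (adjusted p = 6.29e-05, edgeR). Leaving aside these genes and those with ribosomal RNA or Lars2, 23 increases and 1 decrease remained. Matches of at least 25 bases at 95% identity to any annotated small RNA gene, ribosomal RNA included, were counted too. They were in 409 transcripts (5.25%) and in 8 of the 36 called ones. A small RNA gene lying inside the same transcript counts as a match. Those other than ribosomal RNA were not left aside. Whether reads from other RNAs were counted on these transcripts was not tested.

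Most of the remaining calls rest on few reads or on one library. Bicd2, Lrrc27, Pdik1l, Proser3 and Slc23a2 are among the 62 genes that were over 8 times higher in the control mRNA-seq library of experiment 2 than in those of experiments 1 and 3. Bicd2, an adaptor of the dynein motor, had 20, 588 and 98 mRNA-seq reads in control and 31, 182 and 34 in CPA18 cells, and its change was 3.58 ± 0.60 (adjusted p = 7.39e-05, edgeR). Without that library Bicd2 changed by 2.33, adjusted p = 0.0123 and Pdik1l by 2.94, adjusted p = 0.000505, while Lrrc27 (3.38, adjusted p = 0.0519), Proser3 (2.78, adjusted p = 0.251) and Slc23a2 (1.49, adjusted p = 0.449) lost the call. Without experiment 2, Bicd2 (2.50, adjusted p = 0.16) and Pdik1l (3.35, adjusted p = 0.0708) lost it as well.

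Pts encodes an enzyme of tetrahydrobiopterin synthesis and had as few as 5 reads in a library. Its level was 9.60, 6.08 and 17.03 RPM in control mRNA-seq and 5.64, 8.83 and 8.34 RPM in CPA18 mRNA-seq, overlapping between groups. Its footprints were at 20.7, 7.53 and 10.2 RPM in control and 71.4, 83.7 and 88.5 RPM in CPA18 cells. All CPA18 Ribo-seq values exceeded all control values by at least 3 times, the occupancy change was 3.25 ± 0.64 (adjusted p = 0.00169, edgeR), and the call was lost without experiment 3 (2.44, adjusted p = 0.18). Hint2, a mitochondrial nucleotide hydrolase, changed by 0.19 ± 0.31 in mRNA-seq and 1.81 ± 0.28 in Ribo-seq, with an occupancy change of 1.62 ± 0.41 (adjusted p = 0.0476, edgeR) that was lost without any one experiment, at 1.504, 1.54 and 1.79. Tcea1, a transcription elongation factor, changed by 2.44, with 2.94, 3.06 and 0.57 in experiments 1, 2 and 3, and lost the call without experiment 1 (2.23, adjusted p = 0.111) and without experiment 2 (1.64, adjusted p = 0.37). Its control mRNA-seq level in experiment 2 was 7.33 times that in experiments 1 and 3, and without that library the change was 1.33, adjusted p = 0.251. Zfp664, a zinc finger gene, had 2.44, 3.33 and -0.37, and Nf2, which encodes merlin, 3.37, 0.57 and 0.60, and both lost the call without experiment 1 and without experiment 2. The other called increases, of Kif3a, Cdv3, Mycbp, Rdh8, Stx16, Cpeb2, Tcf4 and Tmem170b, ran from 1.82 to 3.02, and each lost the call without at least 1 experiment, with changes then from 1.19 to 3.59. Without the control mRNA-seq library of experiment 2, calls were also lost for Stx16 (1.02, adjusted p = 0.651), Kif3a (1.30, adjusted p = 0.477), Zfp664 (1.14, adjusted p = 0.472) and Hint2 (1.23, adjusted p = 0.447). Cdv3 (1.69, adjusted p = 0.0908), Tmem170b (3.09, adjusted p = 0.0831) and Cbx5 (2.05, adjusted p = 0.0537) missed the threshold without it too. Over all 36 genes, 7 kept their call without each experiment in turn: Cdyl2, D430019H16Rik, Gm20594, Kmt5c, Lars2, Nnat and Tmem38b. Of these, Lars2 lost it by DESeq2, and Tmem38b by DESeq2 and with totals without Ins1, Ins2 and Lars2 (3.92, adjusted p = 0.0612, edgeR). By limma Gm20594 and Kmt5c alone kept the call, and without the experiment block only these and Cdyl2 did.

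The median of a gene group lay at most 0.53 from that of all genes. The lists of pathways below describe the members by their median against that of all tested genes, and no list was tested as a set. Counts of members stand beside the following shares of all genes. At an unadjusted p under 0.05, 5.67% were higher and 3.34% lower in occupancy. In mRNA-seq 25.9% rose and 7.69% fell, and in Ribo-seq 24.6% rose and 6.35% fell. Where 0 members are said to have passed by edgeR, limma called 0 as well, and DESeq2 called 0 unless a gene is named.

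Genes of DNA replication had the lowest median of the 25 lists, 0.53 below that of all genes, and 0.55, 0.61 and 0.29 below it in experiments 1, 2 and 3. Of 43 tested members 0 passed by edgeR, and DESeq2 called Pcna as a decrease. At an unadjusted p under 0.05, 10 were lower and 1 higher, against 3.34% and 5.67% of all genes. All 17 alternatives gave a median below that of all genes, by 0.43 to 0.63. In mRNA-seq 20 members rose and 0 fell, and in Ribo-seq 9 rose and 2 fell. Pcna, the sliding clamp of the replication fork, changed by 0.52 in mRNA-seq, -0.35 in Ribo-seq and -0.87 ± 0.31 in occupancy (adjusted p = 0.268, edgeR). The helicase subunit Mcm6 had an occupancy change of -0.88 ± 0.31, and the polymerase subunits Pold2 and Pole2 of -1.04 ± 0.38 and -2.25 ± 0.80, with adjusted p of 0.269, 0.321 and 0.277 (edgeR). The cell cycle list lay 0.32 below all genes, with 0 of 67 members past the adjusted threshold and 2 higher and 4 lower at an unadjusted p under 0.05.

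Components of the translation machinery did not move as one. The mRNAs of elongation factors and others with a terminal oligopyrimidine tract, whose translation depends on growth signals, lay 0.33 below all genes, and 13 of 26 (50.0%) were lower in all 3 experiments and 0 higher, against 14.9% and 15.8% of all genes. None passed by edgeR, and 0 were higher and 5 lower at an unadjusted p under 0.05. The cytosolic ribosomal proteins, which carry the same kind of tract, lay 0.10 above all genes, at -0.33, 0.24 and 0.26 relative to them in experiments 1, 2 and 3, so the experiments differed in direction. Of their 82 tested members, 60 rose in mRNA-seq and 70 in Ribo-seq, 0 passed for occupancy by edgeR, 3 were higher and 4 lower at an unadjusted p under 0.05, and DESeq2 called Rpl4 as a decrease. Aminoacyl-tRNA synthetases lay 0.31 below all genes, with 26 of 35 higher in mRNA-seq and 23 in Ribo-seq; Lars2 was the only call, and 1 was higher and 4 lower at an unadjusted p under 0.05. Aars, the alanyl-tRNA synthetase, changed by 1.65 in mRNA-seq and 0.88 in Ribo-seq, an occupancy change of -0.76 ± 0.34 (adjusted p = 0.469, edgeR). Translation initiation factors lay 0.15 below all genes, with 0 of 49 past the adjusted threshold and 1 higher and 3 lower at an unadjusted p under 0.05.

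Most genes of the unfolded protein response rose in both assays, and none of those listed here was called for occupancy by edgeR. Of 35 ER chaperones and folding enzymes, 21 rose in mRNA-seq and 21 in Ribo-seq; 0 passed for occupancy, 0 were higher and 1 (P4hb) lower at an unadjusted p under 0.05, and the median lay 0.13 below all genes. Hspa5, which encodes the chaperone BiP, had 620.0, 296 and 246 RPM in control mRNA-seq and 1736, 1165 and 1026 RPM in CPA18 mRNA-seq. Its footprints were at 3192, 3113 and 3855 RPM in control and 12936, 13914 and 12070 RPM in CPA18 cells. Hspa5 rose by 1.83 and 1.94 in the 2 assays, and its occupancy change was 0.11 ± 0.29 (adjusted p = 0.95, edgeR). Herpud1, a component of ER-associated degradation, had 0.02 ± 0.32. The ER-associated degradation list lay 0.09 below all genes, with the other sign under 4 of 17 alternatives; 20 of 33 members rose in mRNA-seq, 0 passed for occupancy, 2 were higher and 3 lower at an unadjusted p under 0.05, and DESeq2 called Vcp as a decrease. The translocon, signal peptidase and oligosaccharyltransferase list lay 0.18 below all genes, with 0 of 35 past the adjusted threshold, 0 higher and 2 lower at an unadjusted p under 0.05, and DESeq2 calling Stt3a, a catalytic subunit of oligosaccharyltransferase, as a decrease. Of 25 target enzymes and transporters of ATF4 and CHOP, 21 rose in mRNA-seq and 23 in Ribo-seq; 0 passed for occupancy, 1 was higher and 2 lower at an unadjusted p under 0.05, and the median lay 0.23 below all genes. ER to Golgi transport genes lay 0.14 below all genes, with 0 of 48 past the threshold and 0 higher and 3 lower at an unadjusted p under 0.05.

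**Figure D4:**
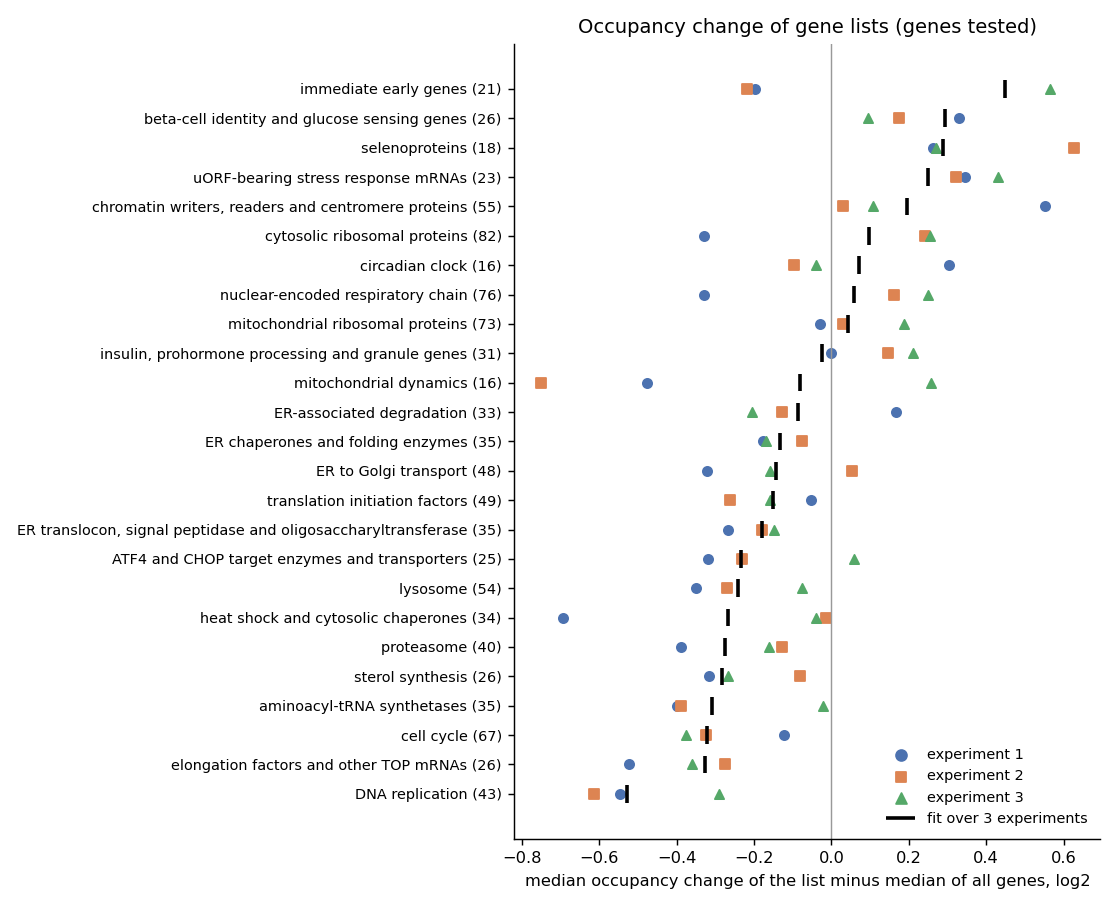
Median change of ribosome occupancy from control to CPA18 of each of the 25 gene lists minus the median over all 7794 genes (x axis, log2), with a coloured symbol for each experiment, a black bar for the fit over 3 experiments and the number of genes tested in brackets. DNA replication lies lowest at -0.53, and selenoproteins lie at 0.29 with all 3 experiments above 0.

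Selenoproteins, in which a UGA codon is read as selenocysteine, lay 0.29 above all genes, at 0.26, 0.63 and 0.27 in experiments 1, 2 and 3. The list held 27 symbols, some of them older names of genes that it also held under their current names. Tested were 18 genes, of which 9 (50.0%) were higher in all 3 experiments and 0 lower, against 15.8% and 14.9% of all genes. None passed the adjusted test, and 5 were higher and 0 lower at an unadjusted p under 0.05 (edgeR), against 5.67% and 3.34%. Selenok, Dio1, Selenom and Selenow had changes of 1.16 ± 0.36, 1.64 ± 0.56, 0.80 ± 0.35 and 0.79 ± 0.33, with adjusted p of 0.156, 0.248, 0.463 and 0.435 (edgeR). Among heat shock proteins and cytosolic chaperones, 0 of 34 passed by edgeR, 0 were higher and 6 lower at an unadjusted p under 0.05, and the median lay 0.27 below all genes, at -0.69, -0.01 and -0.04 in experiments 1, 2 and 3, so that experiment 1 carries most of it. Within that list DESeq2 called Cct4, Cct8 and Tcp1, subunits of the chaperonin that folds actin and tubulin, as decreases, and in edgeR Cct4 had -1.27 ± 0.33 (adjusted p = 0.0516). The proteasome list lay 0.27 below all genes (0 of 40 passed, 0 higher and 3 lower at an unadjusted p under 0.05), and the lysosome list 0.24 below (0 of 54 passed, 1 higher and 3 lower), with 14 lysosomal genes lower in mRNA-seq and 25 in Ribo-seq. Sterol synthesis genes lay 0.28 below, with 0 of 26 passing and 0 at an unadjusted p under 0.05 in either direction.

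Nuclear genes for mitochondria did not share a direction across the experiments. The respiratory chain list lay 0.06 above all genes in the fit, but at -0.33, 0.16 and 0.25 relative to them in experiments 1, 2 and 3, and took the other sign under 4 of 17 alternatives. Of its members, 0 of 76 passed by edgeR, 3 were higher and 4 lower at an unadjusted p under 0.05, and DESeq2 called Uqcr10 and Uqcr11, small subunits of the cytochrome bc1 complex, as increases. In edgeR Uqcr10 had 1.27 ± 0.34 (adjusted p = 0.0689), while Ndufs1, a large subunit of complex I, had -1.12 ± 0.40 (adjusted p = 0.282). Mitochondrial ribosomal proteins lay 0.04 above all genes (0 of 73 passed, 4 higher and 2 lower at an unadjusted p under 0.05), and genes of mitochondrial dynamics 0.08 below (0 of 16 passed, 0 higher and 2 lower). The mitochondrial dynamics list lay at -0.48, -0.75 and 0.26 relative to all genes in experiments 1, 2 and 3, and ran from -0.47 to 0.64 under the 17 alternatives, 4 of which gave the other sign. Mfn1, which encodes a protein of outer membrane fusion, had -0.68 ± 0.65 (adjusted p = 0.808, edgeR). Immediate early genes lay 0.45 above all genes in the fit, but at -0.20, -0.22 and 0.56 in experiments 1, 2 and 3, and 0 of 21 passed, with 1 higher and 2 lower at an unadjusted p under 0.05.

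Transcript features that the ratio did not use followed the change differently in the 3 experiments. Genes in the lowest quartile of GC content lay 0.52 above the median of all genes in experiment 1, at 0.00 in experiment 2 and 0.32 below in experiment 3. Genes in the highest quartile lay 0.19 below, 0.05 above and 0.27 above. The relation with GC content thus took opposite directions in experiments 1 and 3. Genes with 5 or more ATGs in the leader (557 genes) lay 0.43 above all genes in experiment 1 and at 0.03 and -0.00063 in experiments 2 and 3, and the 4189 genes with no leader ATG lay at -0.12, -0.03 and 0.00. Genes in the quartile with the shortest coding sequence lay at -0.07, 0.12 and 0.19 in experiments 1, 2 and 3, and those in the quartile with the longest at 0.19, -0.05 and -0.09. Of the 34 called increases, 17 lay in the quartile with the longest trailers, a quartile whose median mRNA level was 3.94 RPKM, against 33.2 RPKM in the quartile with the shortest. Adjusting each library for GC content left 18 increases and 1 decrease.

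**Figure D5:**
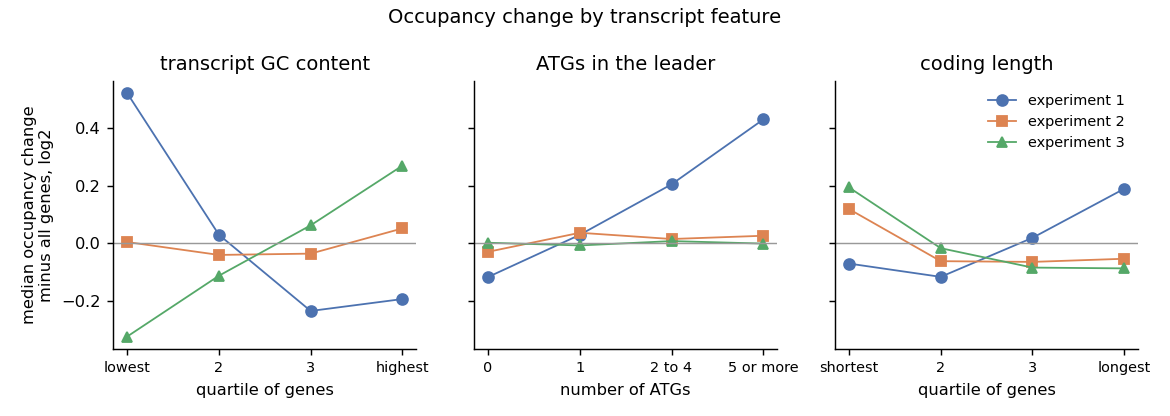
Median change of ribosome occupancy from control to CPA18 minus that of all genes (y axis, log2) for genes grouped by quartiles of transcript GC content, number of leader ATGs and quartiles of coding length (x axes), with a line for each experiment. The GC lines of experiments 1 and 3 slope in opposite directions, from 0.52 to -0.19 and from -0.32 to 0.27.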

How the data were processed

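Ribo-seq (ribosome footprints of cells harvested with cycloheximide) and poly(A) mRNA-seq of MIN6 cells were analysed, in 3 experiments with 3 treatments each. The authors used Bowtie2 (version not given in the sources used here) to align reads to mouse RNA sequences of GRCm38.p6. The authors deposited a count of reads per transcript, and RPM and RPKM values scaled to the library total. RPKM recomputed from the counts differed from the deposited RPKM by at most 0.0011 on the log2 scale. NM_ transcripts were summed to genes, and 7794 of 17208 genes had at least 1 read in all 18 libraries.

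The occupancy change was taken from the assay-by-treatment interaction fitted in edgeR 4.0.16 (quasi-likelihood test, library size = total count, experiment within assay as a block, all 18 libraries, Benjamini-Hochberg adjustment over all genes, threshold 0.05), in R 4.3.3. Each assay alone was tested with the experiment as a block. The labels give a batch number for each library, shared by the treatments of one experiment. Libraries of one assay with the same number deviated together. Their deviations had a mean correlation across genes of 0.567 (0.113 to 0.757, 9 pairs) in mRNA-seq and 0.139 (0.083 to 0.187, 9 pairs) in Ribo-seq. Libraries with different numbers were not compared. The numbers were taken to pair the samples. Per-experiment changes are ratios of RPM values and have no test. The test was also run on simulated counts with known changes. Those counts had the same dispersion for all genes and the same change in every experiment. They therefore do not show how the test performs where the experiments differ, as they did here. Alternatives used limma 3.58.1 on log2(RPKM + 0.5) and log2(RPKM + 1), DESeq2 1.42.0, and other scalings and filters. The added constant understates changes of low genes, but limma also lost the calls of well-read genes such as Ftl1 and Nnat. Why limma kept few calls was not tested. Where a library was left out the remaining libraries were refitted and nothing was imputed.

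Named genes were all those called, the 10 largest increases and decreases among genes at an unadjusted p under 0.05 that moved one way in all 3 experiments and averaged at least 5 RPKM in each assay, 13 genes of the stress response and the beta cell, and up to 4 members of each of 25 gene lists with the smallest unadjusted p. The members and the lists were chosen with earlier results of these data known. Ferritin heavy chain was added after values had been seen. Some genes are not reported here. Transcript models matched 7786 of 7794 genes. Matches to ribosomal RNA were found with BLAST 2.17.0, and the large cytosolic ribosomal RNAs were not used here. Standard errors come from the fit, and counting error is only a part of them. Over genes, the counting error of the mean change had a median of 0.42 and the standard error a median of 0.51. For Cpe, which had many reads, these were 0.035 and 0.30. Total counts ran from 168129 to 4755030 per library.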

Additional observations from a re-analysis of the deposited data

Results flagged for a closer look

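For 6 genes the occupancy change at 18 h differed from that at 1 h, by edgeR's quasi-likelihood test of the difference itself with Benjamini-Hochberg adjustment over 7794 genes; 5 were higher at 18 h (0.0642%) and 1 was lower (0.0128%). Both changes are set against the same control libraries. Gm20594, the predicted gene with mitochondrial ribosomal RNA sequence, changed by 2.03 at 1 h and 4.40 at 18 h, a difference of 2.37 (adjusted p = 3.23e-05, edgeR). Tmem38b changed by 1.08 and 3.92, a difference of 2.84 (adjusted p = 0.00844, edgeR). Lars2 changed by 1.13 and 3.46, a difference of 2.33 (adjusted p = 0.00844, edgeR). These 3 transcripts are those set apart in the report for ribosomal RNA sequence or for their share of mRNA-seq reads. Nr1d1, the clock repressor, changed by 0.13 and -1.96, a difference of -2.09 (adjusted p = 0.0256, edgeR). Pts changed by 0.71 and 3.25, a difference of 2.54 (adjusted p = 0.0444, edgeR), and Cdyl2 by 1.23 and 4.23, a difference of 2.999 (adjusted p = 0.0444, edgeR). Cdyl2 had 10, 12 and 9 reads in CPA1 mRNA-seq and 20, 3 and 20 in CPA1 Ribo-seq. At 1 h itself 7 genes rose in occupancy (0.0898%), by the same test: Atf5 (2.09), Cenpb (1.51), Ftl1 (1.47), Gm20594, Kmt5c (3.40), Pdik1l (3.06) and Zfand2a (2.26).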

How the results depend on the processing

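The 36 occupancy calls became 3 without the replicate block (the fit without pairing), 2 and 2 by limma with pseudocounts of 0.5 and 1, 121 with no filter on low counts, 23 with 1 transcript per gene, 22 from the 12 control and CPA18 libraries alone, and 13 to 40 without 1 experiment; adjusted for GC content, chosen after seeing the data, they became 19. TMM gave 22 increases and 4 decreases, with 21 of the 36 among them, and DESeq2 32 and 12, with 22 of the 36. The calls in mRNA-seq went from 2617 to 154 without the replicate block, 1109 with at least 10 reads, 1460 without the control library of experiment 2 and 990 to 2481 without 1 experiment. Those in Ribo-seq went from 2409 to 1118 by DESeq2, 1485 and 1578 by limma, 1265 with at least 10 reads and 1474 to 1660 without 1 experiment, and the unpaired fit gave 1957. Increases made up 44.2% of mRNA-seq and 45.2% of Ribo-seq calls by DESeq2, 61.5% and 63.2% with totals without Ins1 and Ins2, and 62.2% and 65.9% with totals also without Lars2. The median mRNA-seq change over all genes was 0.36 with total counts and -0.08 with TMM, and that of Ribo-seq 0.39 and 0.03. The median fitted occupancy change was 0.03 with total counts and 0.06 with TMM. The per-experiment occupancy medians had an SD of 0.41 over the 3 experiments, about as large as the shifts in each assay. Some uncalled changes near 0 took the other sign. Without 1 experiment, Herpud1 ran from -0.065 to 0.12, Hspa5 from -0.11 to 0.37, Pdx1 from -0.018 to 0.68, Slc2a2 from -0.55 to 1.79 and Pcsk2 from -0.24 to 0.13. Without the block Herpud1 was at -0.049, with the insulin genes out of the totals at -0.0042, and at -0.16 without the control mRNA-seq library of experiment 2. No called gene of the text changed sign under any alternative run. Low depth of CPA18 Ribo-seq, with a median of 7, 8 and 22 reads per gene, limits all occupancy values. The cause of these shifts was not tested.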
